A study of Mus musculus with 6 samples.

Results

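The genes described here are 9 genes of lipid uptake and lysosomal lipid export, chosen by name: the scavenger receptors Msr1, Marco, Cd36 and Scarb1, the lysosomal lipid handlers Lipa, Npc1 and Npc2, and the lysosomal membrane proteins Lamp1 and Lamp2. All 9 were measured, each by 1 probe set, among 19505 named genes and 22206 probe sets. They were profiled in microglia, the resident macrophages of the brain, from 3 CKO and 3 control samples of female C57BL/6 mice, 1 Affymetrix array per sample. The CKO samples carry a B cell conditional knock-out, which the series title links to GM-CSF made by B cells. GM-CSF is a growth factor and activator of monocytes and macrophages. Mice of both groups were immunised with recombinant MOG in IFA, received pertussis toxin, and were taken at the peak of EAE, experimental autoimmune encephalomyelitis, in which immune cells attack myelin. The sources used here do not give the deleted gene, the Cre driver, the age, the genotype of the controls, any pooling of animals or the way the microglia were isolated. The question is how these genes differ in microglia when the B cell population is altered.

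Scavenger receptors on macrophages bind oxidised lipoproteins, lipid-rich debris and dying cells and carry them to endosomes and lysosomes. There, acid lipase cuts cholesteryl esters, NPC2 picks up the free cholesterol and hands it to NPC1 in the lysosomal membrane, and the cholesterol leaves for the rest of the cell. LAMP1 and LAMP2 are heavily glycosylated proteins that line and protect this membrane. In demyelinating disease, microglia and infiltrating macrophages take up myelin, whose cholesterol has to pass through this route.

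Of the 9 genes, 8 had a lower mean in CKO microglia than in control microglia, and 1, Marco, a higher one. Msr1 and Npc2 differed most clearly, by -1.84 and -1.33 on the log2 scale. Lamp1 differed by -0.73, while Lamp2, its close relative, differed by -0.10. None of the 9 passed the limma test over the whole array (two-sided, Benjamini-Hochberg adjustment over all probe sets, 0.05), which called 2 probe sets, or 0.00901% of all. At an unadjusted p under 0.05, 3 of the 9 were lower (Msr1, Npc2 and Lamp1) and 0 higher, where 6.35% of all probe sets were lower and 3.55% higher by the same rule. The CKO values lay wholly below the control values for 4 of the 9 (Msr1, Lipa, Npc2 and Lamp1), against 8.48% of all probe sets. The mean was lower in CKO for 44.3% of all probe sets, a share that depended on brightness. The median difference of the 9 genes was -0.73, and that of all named genes 0.05. The 9 genes were chosen with results of these arrays known, so these counts are a description.

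All these shares depended on how bright a probe set was, so the 9 genes are best read beside probe sets of their own brightness. The interquartile range of an array was 3.08 and 3.11 on CKO replicates 2 and 3, against 4.0 on CKO replicate 1 and 3.66 to 3.74 on the controls. Among the brightest 10% of probe sets, which hold Lipa, Npc2, Lamp1 and Lamp2, the median difference was -0.19, 66.5% had a lower mean, and 16.9% were lower at an unadjusted p under 0.05, as 2 of these 4 genes were. In that bin 20.9% of probe sets had CKO values wholly below the controls, as 3 of the 4 genes had. Between the 50th and 75th percentile, which holds Msr1, Cd36 and Scarb1, 50.9% had a lower mean, 8.52% were lower at that p and the median was -0.01. Between the 75th and 90th percentile, which holds Npc1, 66.5% had a lower mean, 11.5% were lower at that p and the median was -0.20. In the dimmer 50% of probe sets, which holds Marco, the median was 0.19, 29.8% had a lower mean, and 4.14% were higher and 1.58% lower at that p. These bins were drawn after the data were seen.

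The samples also differed in markers of other cells. Markers of homeostatic microglia were bright on every array, with a mean log2 value over 13 genes of 17.08 to 17.61 on the CKO arrays and 16.57 to 17.10 on the control arrays. Of these, P2ry12, a purinergic receptor, and Csf1r, the receptor for the growth factor that keeps microglia alive, stood at 18.76 or higher on every array. A higher CKO mean was seen for 11 of the 13 genes, with 2 of them at an unadjusted p under 0.05 (limma). Among the brightest 10% of probe sets, 3.27% were higher by that rule. Markers of blood monocytes and their macrophages averaged 10.66 to 11.32 on the CKO arrays and 11.96 to 12.82 on the control arrays. All 17 had a lower CKO mean, 11 of them at an unadjusted p under 0.05. Over all probe sets, 44.3% had a lower mean and 6.35% were lower at that p. Among the brightest 10% these shares were 66.5% and 16.9%. T cell markers averaged 6.73 to 7.44 on the CKO arrays and 8.50 to 10.31 on the control arrays. Neutrophil markers averaged 13.12 to 13.95 on the CKO arrays and 13.94 to 14.63 on the control arrays. Of these 14 markers, 12 had a lower CKO mean and 3 were lower at an unadjusted p under 0.05, with a median of -0.605. The 2 brightest of them, Ngp and Lcn2, differed by only 0.02 and -0.03. Both stood at 18.80 or higher on every array, where the highest value of any probe set was 19.93. Astrocyte markers averaged 12.18 on CKO replicate 1 and 10.69 on control replicate 2, the highest array of each group, and were at 8.75 on the lowest CKO array and 8.29 on the lowest control array. In bulk samples, fewer cells of a type and less RNA per cell cannot be told apart. Nothing in the labels says whether each replicate came from its own animal, and the p-values therefore reflect the spread among these 6 samples, possibly a technical one.

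Msr1 encodes the class A macrophage scavenger receptor, a trimeric collagen-like protein that binds modified low density lipoprotein. It lay at 7.30, 7.62 and 7.31 on CKO replicates 1, 2 and 3, against 9.32, 8.54 and 9.89 on control replicates 1, 2 and 3 (log2). The CKO arrays sat close together and the lowest control, replicate 2, was still 0.92 above the highest CKO array. The difference was -1.84 (SE 0.37, 95% interval -2.69 to -0.99, limma unadjusted p = 0.00096, adjusted p = 0.137), so that the CKO level was 0.279 of the control level. It ranked 156th of all probe sets by p. Leaving out any single array kept it between -2.20 and -1.52, and CKO replicate 1 alone against the 3 controls gave -1.95. Over the 6 arrays its nearest profiles among named genes were those of Irf1, an interferon-gamma induced transcription factor, Samhd1, a nucleotide hydrolase that restricts viruses, and Clec2f, a C-type lectin-like gene, whose deviations from their own means differed from those of Msr1 by 0.087, 0.098 and 0.098 log2 units on average. Monocyte markers moved with Msr1, with a mean deviation of -1.07, -0.89 and -0.40 on CKO replicates 1, 2 and 3 and of 1.03, 0.23 and 1.10 on control replicates 1, 2 and 3. T cell markers did so too, at -1.69, -0.97 and -1.18 on the CKO and 1.85, 0.08 and 1.90 on the control replicates. The part of either marker set in the result was not tested.

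Cd36 encodes a class B scavenger receptor that takes up oxidised lipoproteins and fatty acids and is found on monocytes, platelets and small vessels as well as on macrophages. It was at 6.69, 5.87 and 7.50 on CKO replicates 1 to 3 and at 8.34, 6.81 and 8.65 on control replicates 1 to 3. The groups overlapped, because control replicate 2 was below CKO replicate 3. The difference was -1.25 (SE 0.56, 95% interval -2.54 to 0.04, limma unadjusted p = 0.0567, adjusted p = 0.515). It moved to -1.81 without control replicate 2 (unadjusted p = 0.00776, adjusted p = 0.279) and to -0.84 without CKO replicate 2. Monocyte and T cell markers, with the array deviations given for Msr1, were lower on every CKO array than on every control array. Their part in the result was not tested. Endothelial markers had a mean deviation of -0.21, 0.16 and 0.00 on CKO replicates 1 to 3 and of 0.06, -0.07 and 0.06 on control replicates 1 to 3, with the groups overlapping.

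Scarb1 encodes the class B receptor for high density lipoprotein, which moves cholesteryl esters across the membrane without taking in the whole particle. It was at 8.74 on CKO replicate 1, the same value as on control replicate 1. CKO replicates 2 and 3 were lower, at 7.35 and 6.49, and control replicates 2 and 3 were at 8.46 and 8.32. The group difference of -0.98 (SE 0.52, 95% interval -2.17 to 0.21, limma adjusted p = 0.556) rested on CKO replicates 2 and 3. It was -1.59 without CKO replicate 1 (adjusted p = 0.0261), in a fit that called 2209 probe sets over the array. It was -0.46 without CKO replicate 3, and 0.23 with CKO replicate 1 alone against the controls.

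Marco encodes a class A scavenger receptor with a collagen-like stalk, best known on macrophages of the lung and of the splenic marginal zone. It was dim, with 27.1% of probe sets below it in mean value. It was at 5.24, 6.62 and 6.90 on CKO replicates 1 to 3, against 5.28, 5.94 and 5.68 on control replicates 1 to 3. CKO replicates 2 and 3 were above every control and CKO replicate 1 was below every control. The difference was 0.62 (SE 0.45, 95% interval -0.41 to 1.65, limma adjusted p = 0.645). After quantile normalization of the arrays it was 0.47. Without CKO replicate 1 it was 1.13 (adjusted p = 0.0489), in a fit that called 2209 probe sets. That fit kept only the CKO arrays of narrower interquartile range, 3.08 and 3.11. The difference of Marco is therefore read with care. It stayed above 0 with any single array left out, from 0.30 to 1.13, and was -0.39 with CKO replicate 1 alone against the controls. Neutrophil markers, from cells that can also carry Marco, averaged 13.12 to 13.95 on the CKO arrays and 13.94 to 14.63 on the control arrays.

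**Figure D1:**
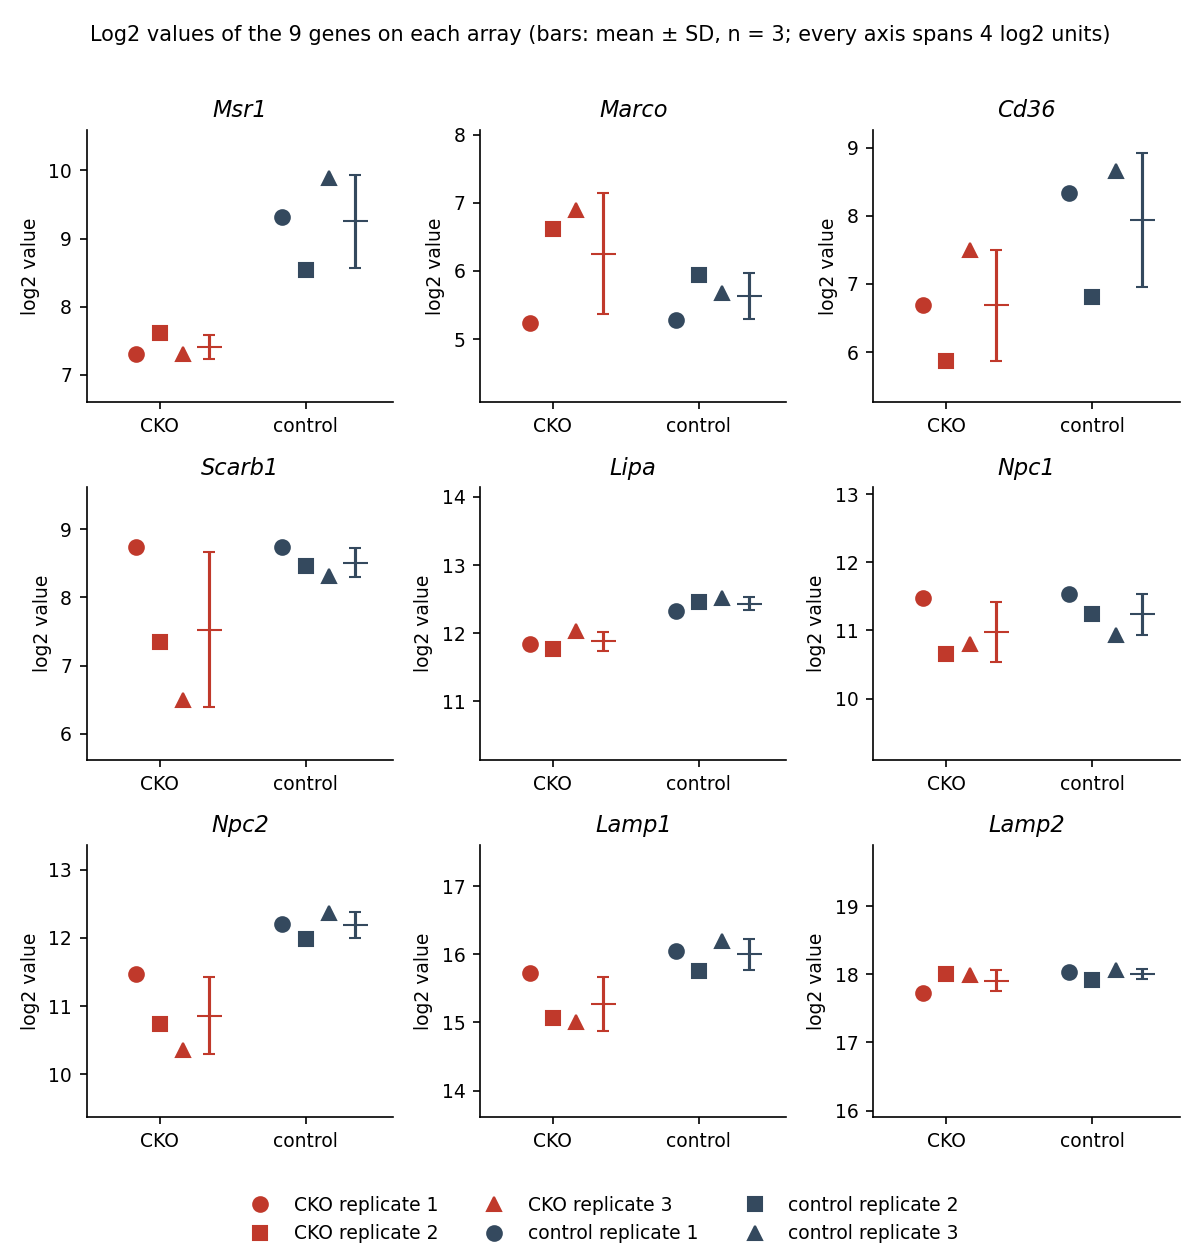
Log2 values of the 9 genes, 1 panel per gene, with CKO arrays (red) left of control arrays (dark blue), a symbol per replicate and mean ± SD (n = 3) beside each group; every vertical axis spans the same number of log2 units. The groups do not overlap for Msr1, Lipa, Npc2 and Lamp1, CKO replicate 1 lies apart from the other CKO arrays for Scarb1 and Marco, and Lamp2 is nearly level at 17.73 to 18.07.

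The lysosomal lipid handlers were bright genes and were all lower in CKO by mean. Npc2, the soluble carrier that binds cholesterol inside the lysosome, was at 11.47, 10.74 and 10.36 on CKO replicates 1 to 3 and at 12.21, 11.98 and 12.37 on control replicates 1 to 3. Every CKO array was below every control array, by at least 0.51, and CKO replicate 1 came nearest to the controls. The difference was -1.33 (SE 0.34, 95% interval -2.11 to -0.55, limma unadjusted p = 0.00413, adjusted p = 0.226), which puts the CKO level at 0.398 of the control level. Without single arrays it ran from -1.64 to -1.08, and with CKO replicate 1 alone it was -0.72. Its nearest profiles were those of Colgalt1, a collagen galactosyltransferase, Rps4x, a ribosomal protein, and Loxl3, a lysyl oxidase-like enzyme, at mean differences of 0.098, 0.106 and 0.11 log2 units over the 6 arrays.

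Npc1, the membrane protein that receives cholesterol from NPC2, did not share this pattern. It was at 11.48, 10.66 and 10.80 on CKO replicates 1 to 3 and at 11.54, 11.24 and 10.94 on control replicates 1 to 3. CKO replicate 1 was above both control replicate 2 and control replicate 3. The difference was -0.26 (SE 0.32, 95% interval -1.0 to 0.48, limma adjusted p = 0.785). The difference between the Npc2 and Npc1 changes was not tested. With CKO replicate 1 alone against the controls Npc1 was 0.24, and after quantile normalization of the arrays it was -0.04.

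Lipa, lysosomal acid lipase, frees cholesterol and fatty acids from esters and triglycerides. It was at 11.84, 11.77 and 12.03 on CKO replicates 1 to 3 and at 12.33, 12.46 and 12.51 on control replicates 1 to 3. Both groups were tight, with SDs of 0.13 and 0.093, and did not overlap, by a gap of 0.30. The difference was small, at -0.55 (SE 0.25, 95% interval -1.13 to 0.03, limma unadjusted p = 0.0587, adjusted p = 0.518). It was -0.59 with CKO replicate 1 alone and stayed within -0.63 to -0.50 without single arrays. Quantile normalization reduced it to -0.31. The same step took the median of the brightest 10% of probe sets to 0.04.

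The 2 lysosomal membrane genes were among the brightest on the arrays, with 99% and 99.7% of probe sets below them in mean value. Lamp1 was at 15.72, 15.07 and 15.01 on CKO replicates 1 to 3 and at 16.05, 15.75 and 16.20 on control replicates 1 to 3. The groups did not overlap, but CKO replicate 1 was only 0.03 below control replicate 2. The difference was -0.73 (SE 0.30, 95% interval -1.43 to -0.04, limma unadjusted p = 0.0412, adjusted p = 0.484). It was -0.96 without CKO replicate 1 (adjusted p = 0.0589), -0.28 with that array alone, and -0.41 after quantile normalization. Its unadjusted p was above 0.05 after quantile normalization (0.147) and without CKO replicate 2 (0.112), CKO replicate 3 (0.121), control replicate 1 (0.105) or control replicate 3 (0.124). It was also above 0.05 with CKO replicate 1 alone (0.451) and with the replicate number as a block (0.0542). Its nearest profiles were those of Pus10, a pseudouridine synthase, Rbfa, a mitochondrial ribosome assembly factor, and Surf4, a cargo receptor of the early secretory pathway, at 0.056, 0.056 and 0.063 log2 units.

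Lamp2, which also serves as the receptor of chaperone-mediated autophagy through one of its splice forms, was at 17.73, 18.00 and 17.99 on CKO replicates 1 to 3 and at 18.03, 17.92 and 18.07 on control replicates 1 to 3. The groups overlapped and the whole range was narrow. The difference was -0.10 (SE 0.25, 95% interval -0.68 to 0.48, limma adjusted p = 0.902). The highest value on any array was 19.93, and 1 probe set does not separate the splice forms of the gene.

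**Figure D2:**
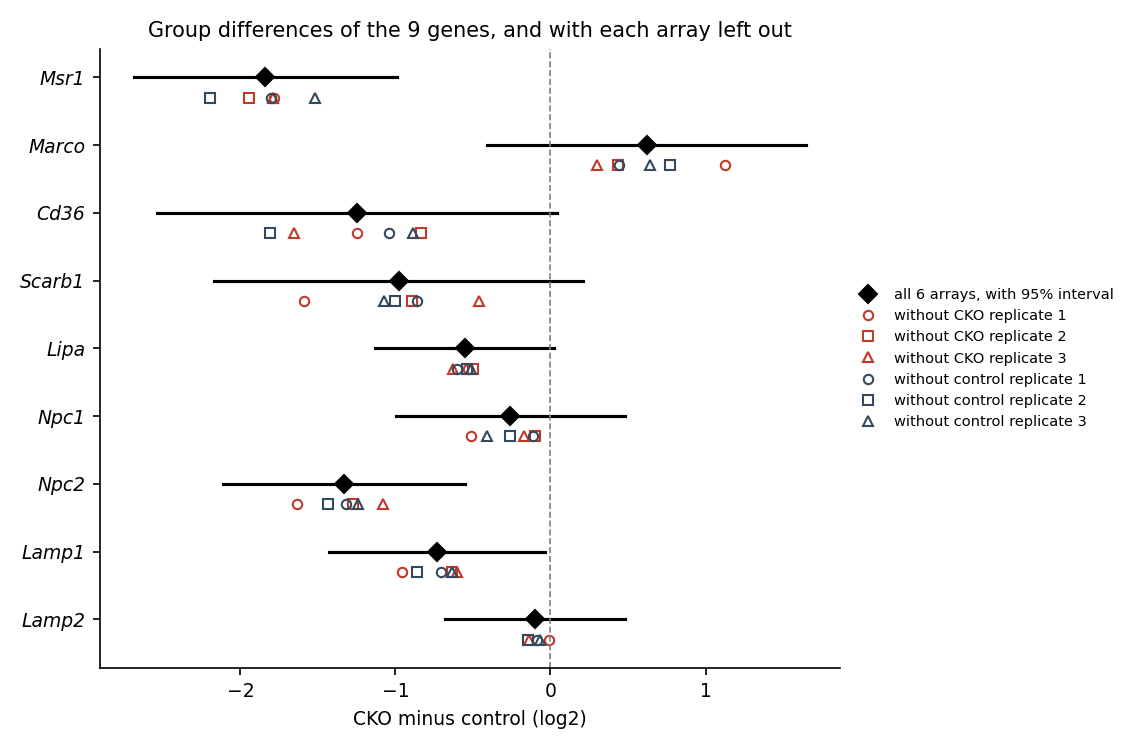
CKO minus control differences (log2) of the 9 genes with their 95% intervals over all 6 arrays (black), and the same difference with each array left out (open symbols, red for CKO and dark blue for control arrays). The intervals of Msr1, Npc2 and Lamp1 lie below 0, Marco is the one gene above 0, and leaving out CKO replicate 1 moves Scarb1 to -1.59 and Marco to 1.13.

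Many lysosomal genes are bound by the transcription factor TFEB and its relatives, which read an element built on the E-box CACGTG. Promoter windows, from 250 bases before to 50 after a start site, were taken from RefSeq (GRCm38.p6) and matched for 6 of the 9 genes: Marco, Cd36, Lipa, Npc2, Lamp1 and Lamp2. The sequences of Lamp1, Lamp2 and Npc2 are shown because the estimates of these 3 bright lysosomal genes were unlike, at -0.73, -0.10 and -1.33. These estimates were not tested against each other. Capitals mark each CACGTG, which reads the same on both strands. The windows are chr8:13158911-13159210 on the plus strand for Lamp1, chrX:38456411-38456710 on the minus strand for Lamp2 and chr12:84773063-84773362 on the minus strand for Npc2, each written 5′ to 3′ along its gene.
Lamp1: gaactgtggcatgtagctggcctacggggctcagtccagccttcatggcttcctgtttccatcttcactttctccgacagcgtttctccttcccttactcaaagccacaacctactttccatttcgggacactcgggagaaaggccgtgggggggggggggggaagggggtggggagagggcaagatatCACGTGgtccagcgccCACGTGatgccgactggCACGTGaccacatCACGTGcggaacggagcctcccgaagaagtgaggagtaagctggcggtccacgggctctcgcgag
Lamp2: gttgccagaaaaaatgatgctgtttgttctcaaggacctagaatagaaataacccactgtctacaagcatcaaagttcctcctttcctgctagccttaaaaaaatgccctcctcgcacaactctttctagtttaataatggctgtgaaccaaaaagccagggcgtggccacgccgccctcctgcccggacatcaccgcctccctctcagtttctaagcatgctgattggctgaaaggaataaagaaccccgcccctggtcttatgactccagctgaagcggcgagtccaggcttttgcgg
Npc2: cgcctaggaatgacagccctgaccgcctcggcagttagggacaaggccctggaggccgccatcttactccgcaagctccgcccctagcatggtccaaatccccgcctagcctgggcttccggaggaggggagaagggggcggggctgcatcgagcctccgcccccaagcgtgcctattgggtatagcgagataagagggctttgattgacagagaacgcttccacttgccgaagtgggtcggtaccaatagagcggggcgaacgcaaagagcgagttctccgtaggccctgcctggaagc

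The Lamp1 window held 4 copies, whose first bases lie 61, 45, 28 and 15 bases before the start site. The other 5 windows, of Lamp2, Npc2, Lipa, Cd36 and Marco, held 0. Of all 32851 promoter windows of this length, 7.15% held at least 1 copy, and 8, or 0.0244%, held 4 or more. A match is a description of the letters and not a site.

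Other genes of the same route were read from lists chosen with earlier results of these data known, and 0 genes of these lists passed over the whole array (limma). Genes listed as lysosomal hydrolases and activators for lipids were mostly lower in CKO by mean. Not all of them act on lipids or in lysosomes. Of 20 measured genes, 19 had a lower CKO mean, 6 were lower at an unadjusted p under 0.05, and the median was -0.62. Of these 20 genes, 10 were at or above the 75th percentile of brightness. There, 66.5% of probe sets had a lower mean and 11.5% to 16.9% were lower at that p. Over all probe sets these shares were 44.3% and 6.35%. With single arrays left out, the count of 6 ran from 4 to 12, and it was 12 without CKO replicate 1. Nceh1 is counted in this list, although it is known as a neutral cholesteryl ester hydrolase of the endoplasmic reticulum, and in the efflux list too. It differed by -1.86 (limma adjusted p = 0.121), Gla, the alpha-galactosidase of glycolipids, by -1.63 (0.121), Gm2a, the activator that lifts gangliosides from membranes, by -1.48 (0.137), and Plbd1, a phospholipase B-like protein, by -1.99 (0.159). Nceh1 was at 10.37, 10.88 and 10.09 on the CKO arrays and at 12.05, 12.84 and 12.02 on the controls, a gap of more than 1 log2 unit.

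Of 33 genes of the lysosomal membrane, its acidification and its regulators, 28 had a lower mean and 6 were lower at an unadjusted p under 0.05, with a median of -0.39. Of these 33 genes, 27 were among the brightest 25% of probe sets, where 66.5% of probe sets had a lower mean and 11.5% to 16.9% were lower at that p, so the count of 6 is near the background. Gnptab, which makes the mannose phosphate tag that sends enzymes to lysosomes, differed by -0.86 (limma adjusted p = 0.32), Cd63, a tetraspanin of late endosomes, by -0.86 (0.385), Igf2r, a receptor for that tag, by -0.89 (0.399), and Mcoln1, a calcium channel of lysosomes, by -0.82 (0.441). This count was 14 without CKO replicate 1, 2 without CKO replicate 2, CKO replicate 3 or control replicate 1, 3 without control replicate 3, and 3 after quantile normalization. In these 2 lysosomal lists, 12 of 45 genes with a promoter window had a CACGTG: Gla, Plbd1, Nceh1, Igf2r, Mcoln1 and Cln3, all lower at an unadjusted p under 0.05, and Arsa, Sgsh, Atp6v0b, Atp6v0d1, Atp6v0e and Atp6v1a, at -1.10 to -0.03 and above that p. Counted in windows rather than genes, the share was 20.7%, against 7.15% of all. The share was 26.1% for cholesterol synthesis, 17.2% for cholesterol efflux, 13.6% for fatty acid genes and 0 of 20 windows for the other scavenger receptors, so it was not particular to the lysosomal lists. The 12 genes had a median difference of -0.89 and the others one of -0.39, a description with no test. Also lower at an unadjusted p under 0.05, but not among these 12, were Gm2a, Psap, Fuca1, Gnptab, Cd63 and Flcn. In the lists for efflux, fatty acids and synthesis, genes with a CACGTG had the lower median too. It was -0.90 against -0.12 for efflux (4 genes with it), -0.60 against -0.04 for fatty acid genes (3) and -0.25 against -0.08 for synthesis (5). The efflux set is not separate, because it holds Nceh1 (-1.86), already among the 12. Its other genes were Plin2 at -1.72, Abca1 at -0.08 and Gramd1c at 0.09, so the lower efflux median depended on Nceh1.

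Of the genes that act on cholesterol outside the lysosome, those of efflux and those of synthesis were read apart. Of 27 genes of cholesterol efflux, esterification and LXR sensing, 17 had a lower mean and 6 were lower at an unadjusted p under 0.05, with a median of -0.16. Of these 27 genes, 15 were at or above the 75th percentile of brightness. There, 66.5% of probe sets had a lower mean and 11.5% to 16.9% were lower at that p. Over all probe sets these shares were 44.3% and 6.35%, so the count of 17 is near the background. Apart from Nceh1, the 6 genes lower at that p were led by Pltp, a phospholipid transfer protein and LXR target, at -2.57 (limma adjusted p = 0.123). Next were Plin2, a coat protein of lipid droplets, at -1.72 (0.159), and Apoe, the lipid carrier, at -1.84 (0.176). Apoe was at 18.72, 17.86 and 17.02 on CKO replicates 1 to 3 and at 19.68, 19.69 and 19.75 on the controls. Since the highest value on any array was 19.93 and the controls had an SD of 0.038, the size of this difference is uncertain, and whether values are compressed there was not tested. Of 20 genes of cholesterol synthesis and SREBP2 targets, 0 reached an unadjusted p under 0.05 (limma), and the median was -0.08. Those with the smallest p were Ebp (-0.68), Scap (-0.65), Srebf2 (-0.50) and Nsdhl (-0.51), at adjusted p from 0.511 to 0.636. Without CKO replicate 1, 7 of them were lower at that p. With that array alone, 6 were higher.

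Of 25 other scavenger receptors and uptake receptors, 13 had a lower and 12 a higher mean, with a median of -0.01. At an unadjusted p under 0.05, 3 were lower: Axl, a receptor for dying cells, at -3.73 (limma adjusted p = 0.0935), Cxcl16, a chemokine that doubles as a receptor for oxidised lipoprotein, at -2.13 (0.15), and Cd14, a co-receptor for lipopolysaccharide, at -0.78 (0.452). Megf10, an engulfment receptor known from astrocytes, was higher by 0.79 (0.464). Of 23 genes of fatty acid uptake and oxidation, 16 had a lower mean and 3 were lower at that p, with a median of -0.21: Lipe, a neutral lipase, at -1.36, Fabp4, a fatty acid carrier, at -1.12, and Dgat1, a triglyceride synthase, at -0.70, at adjusted p from 0.345 to 0.464. Acsl5, a fatty acid ligase, was next, at -0.62 (0.505). Among the brightest 25% of probe sets were 9 of the 25 receptors and 9 of the 23 fatty acid genes. There, 66.5% of probe sets had a lower mean and 11.5% to 16.9% were lower at that p. Over all probe sets these shares were 44.3% and 6.35%. The fatty acid count was 8 without CKO replicate 1 and 1 without CKO replicate 2 or control replicate 3. That of the receptors ran from 2 to 5 with single arrays left out, and was 5 without CKO replicate 1.

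**Figure D3:**
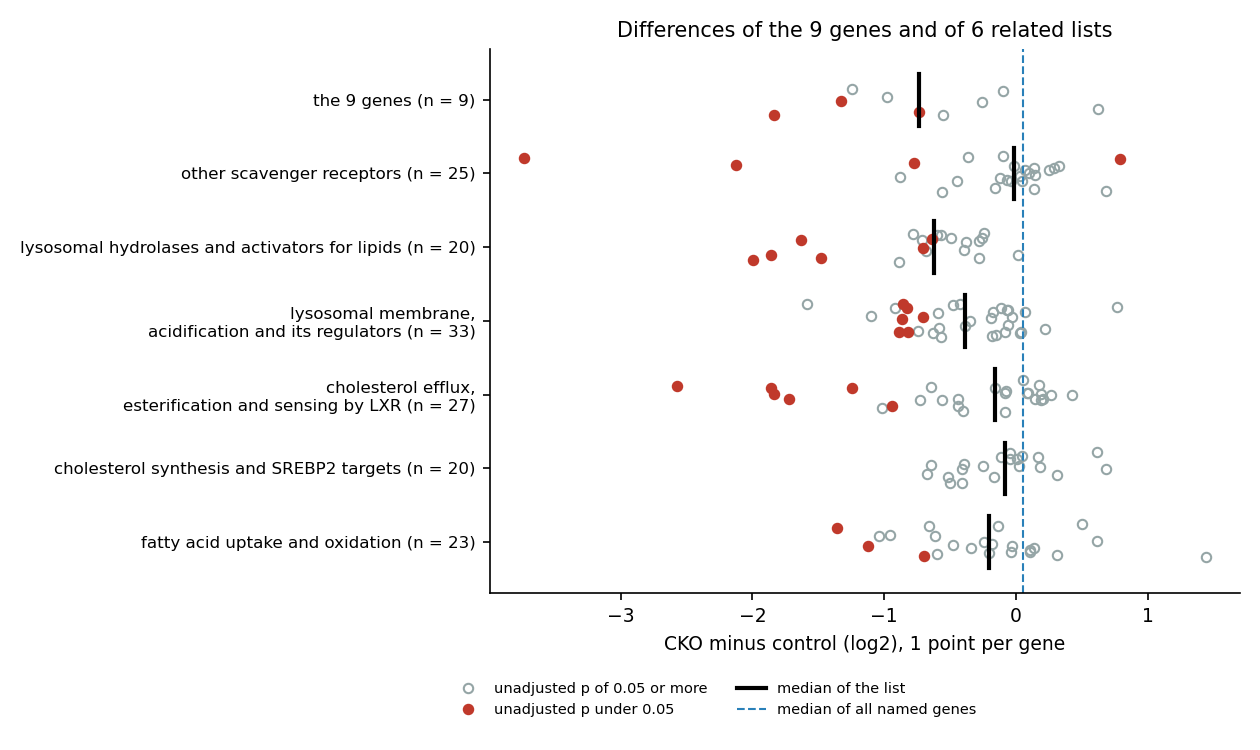
CKO minus control differences (log2), 1 point per gene, for the 9 genes and 6 related lists, with the median of each list (black bar), the median of all named genes (dashed line) and genes at an unadjusted p under 0.05 in red. The lysosomal lists lie mostly below 0 with medians of -0.62 and -0.39, and the other scavenger receptors centre on -0.01.

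Across arrays, the averages of the receptors and of the lipid handlers differed in which array stood between the groups. Single genes did not all follow these averages. Scarb1 deviated by 0.72 on both CKO replicate 1 and control replicate 1, and Marco was highest on CKO replicates 2 and 3. Lipa deviated by -0.32, -0.39 and -0.13 on CKO replicates 1 to 3, all below the controls. The scavenger receptors deviated from their 6-array means by -0.41, -0.54 and -0.35 on CKO replicates 1 to 3 and by 0.52, 0.04 and 0.73 on control replicates 1 to 3, so that control replicate 2 stood between the groups. The lysosomal lipid handlers deviated by 0.00, -0.54 and -0.53 on CKO replicates 1 to 3 and by 0.43, 0.30 and 0.34 on the controls, so that here CKO replicate 1 stood between them. These 2 intermediate arrays are those with the most astrocyte signal, at a mean deviation of 2.60 on CKO replicate 1 and 1.10 on control replicate 2, against -1.30 to -0.78 on the others; its part in the result was not tested.

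**Figure D4:**
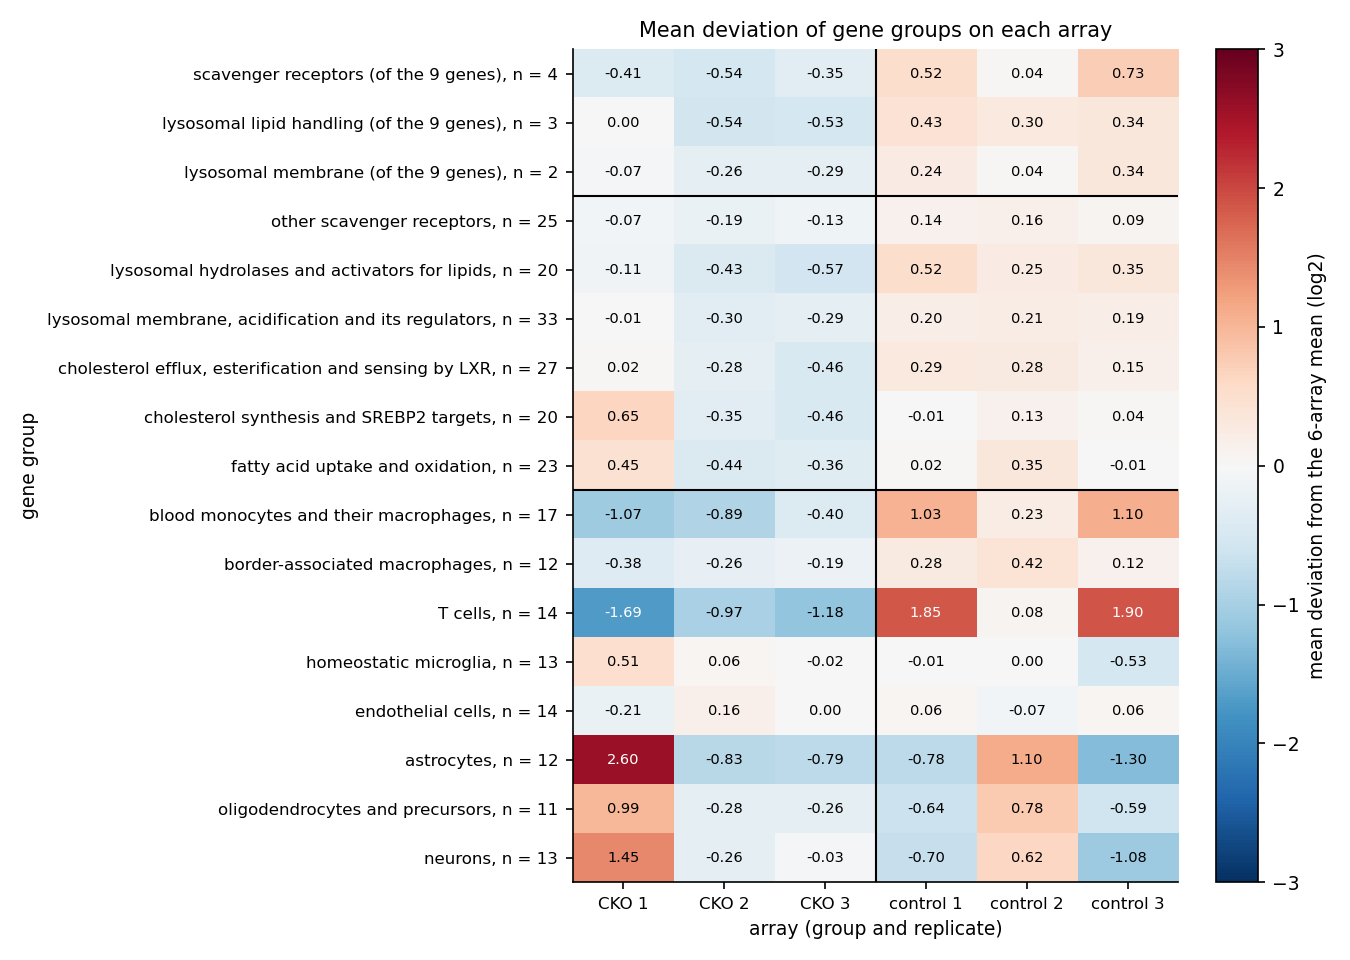
Mean deviation (log2) of gene groups from their own 6-array means, 1 column per array and 1 row per group, with the values printed in the cells. On average, the scavenger receptors, monocyte markers and T cell markers are lower on all CKO arrays. Astrocyte, oligodendrocyte and neuron markers are highest on CKO replicate 1 and control replicate 2.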

How the data were processed

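The authors deposited log2 values, 1 for each probe set on each array, which the submitters' processing notes credit to RMA. RMA corrects background, normalizes arrays and summarises probes, and its version and settings were not stated. The deposited arrays nevertheless differed in spread, with interquartile ranges from 3.08 on CKO replicate 2 to 4.0 on CKO replicate 1. Whether all 6 arrays were normalized together was not stated. That the scale is log2 follows from the deposited range of 2.93 to 19.93. Per the labels' protocols, TRIzol RNA was labelled with an Affymetrix whole-transcript kit. Of 22206 probe sets, 19572 named 1 gene in the platform annotation, 0 several and 2634 none, and all 19572 matched RefSeq (GRCm38.p6) by gene number. A gene was represented by its probe set with the highest mean. Groups came from the titles, and precision is limited by the 6 arrays.

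The test was limma 3.58.1 (R 4.3.3) on all probe sets at once, with lmFit and eBayes, CKO minus control, two-sided and with no covariate, after a check on simulated data. With 3 arrays a group, the smallest p of an exact permutation test is 0.1, so none was run. Named were the 9 genes, the 4 genes of each list with the smallest p, and up to 2 against the list's direction. For the homeostatic microglia and neutrophil markers, the 2 brightest genes were named. The 3 nearest profiles were named for each of the 9 at an unadjusted p under 0.05. Genes of the lysosomal lists at that p or with a CACGTG were named as well. The 9 genes and all lists were chosen with earlier results of these data known. Listed genes that are not on the arrays under that symbol were not analysed here. Other settings were a filter that dropped the dimmest 20% or 50% of probe sets, quantile normalization, median centring, eBayes with trend and robust on, the replicate number as a block, arrays left out, and averaging where a gene had several probe sets.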

Additional observations from a re-analysis of the deposited data

How the results depend on the processing

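Msr1, Npc2, Cd36, Lipa, Lamp1 and Lamp2 kept their direction in all 14 other settings, with Msr1 between -2.20 and -1.52, Npc2 between -1.64 and -0.72 and Lamp1 between -0.96 and -0.28. With CKO replicate 1 alone against the controls (spread from the controls alone), Marco, Scarb1 and Npc1 reversed, to -0.39, 0.23 and 0.24, the count of the 9 genes lower at an unadjusted p under 0.05 was 1, and 0 probe sets passed over the array, with 2413 at an unadjusted p under 0.05; the cause was not tested. That count of the 9 genes was 5 with median centring and 2 to 4 with single arrays left out. Of the 9 genes, 0 to 4 were called with single arrays left out: the 4 came without CKO replicate 1 and were Msr1 (adjusted p = 0.0309), Npc2 (0.0159) and Scarb1 (0.0261), lower, and Marco (0.0489), higher, and that setting called 2209 probe sets. Probe sets called over the array, 2 in the fit reported, were 1 with quantile normalization, 1 with either filter, 4 with the trended robust fit and 0 to 2209 with single arrays left out. With the replicate number as a block the count was 0, with 2213 at an unadjusted p under 0.05, and 4 of the 9 genes were lower at that p: Msr1, Npc2, Cd36 (0.00535) and Scarb1 (0.0499), while Lamp1 (0.0542) was not; deviations of same-numbered arrays correlated at -0.01, -0.23 and 0.25, and 2 of 6 arrays were closest to their own number, so the numbers were not taken as pairs. With 3 arrays per group, differences as small as those of Lipa and Lamp1 had intervals that reach close to 0 or past it, and Marco was dim.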

Other observations

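Of the 20 measured genes of cholesterol synthesis and SREBP2 targets, 12 had their highest value on CKO replicate 1, and the other 8 peaked on another array. The 3 genes that follow were chosen after their values were seen. Fabp7, a fatty acid carrier of astrocytes and neural progenitors, was at 13.66, 9.16 and 9.16 on CKO replicates 1 to 3 and at 8.26, 11.05 and 8.35 on control replicates 1 to 3. Hmgcs1, an early enzyme of cholesterol synthesis, was at 13.73, 11.31 and 11.20 on CKO replicates 1 to 3 and at 11.09, 12.04 and 11.05 on control replicates 1 to 3. Atp6v0d2, a proton pump subunit of osteoclasts and macrophages, was at 5.02, 6.91 and 6.85 on CKO replicates 1 to 3 and at 5.98, 9.16 and 8.41 on control replicates 1 to 3, so replicate 1 was the lowest in both groups.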
